A study of Mus musculus with 6 samples.

Results

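Enzymes that write and erase histone methylation, remove histone acetyl groups, or add and oxidise DNA methylation were examined by RNA sequencing of B16F10luc2 cells, a mouse melanoma line, after culture with or without cyclic stretch. The genes were chosen by name: protein-coding mouse genes whose symbol begins with Kdm, Kmt, Setd, Suv39h, Ehmt, Hdac, Sirt, Dnmt or Tet followed by a digit, together with Ezh1, Ezh2, Eed, Suz12, Nsd1, Nsd2, Nsd3, Dot1l, Uhrf1 and Jmjd1c. The RefSeq reference held 73 such genes. Of these, 70 were among the 14883 genes of the table and all 70 were among the 12377 genes tested, whereas Kdm4d, Dnmt3l and Kdm5d were not analysed here. The static group was 3 samples of cells on flexible-bottomed Bioflex plates left at rest, and the stretch group was 3 samples on the same kind of plate given 15% equibiaxial elongation at 15 cycles per minute for 24 h. Both groups were the same line, grown in DMEM with fetal bovine serum, so every value describes a single cell line. Whether replicates were separate cultures is not stated in the labels, and p-values here reflect the spread among the 3 samples of a group, which could be technical alone.

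Writers of histone methylation attach methyl groups to lysines from S-adenosylmethionine, and erasers remove them, either by a flavin-dependent reaction (the KDM1 enzymes) or by an iron- and 2-oxoglutarate-dependent one (the JmjC enzymes). Methylation of H3K4 and H3K36 is found at active genes, whereas trimethylation of H3K9 and H3K27 marks silent chromatin. DNMT enzymes methylate cytosine, TET enzymes oxidise methylcytosine, and in melanoma these enzymes are known for their part in changes of cell state and as drug targets.

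Levels are given in CPM, the counts of a gene scaled to the same TMM-adjusted total in every library. Fold changes are log2 values of stretch over static with their standard error (SE), and a gene was called when its Benjamini-Hochberg adjusted p in edgeR's quasi-likelihood test over all tested genes was under 0.05. Library totals ran from 19469286 to 36351400 counts. Static libraries differed among themselves more than stretched ones, with chi-square values per degree of freedom of 3.35 to 7.64 over genes against 1.88 to 2.29. Of 10 melanocyte lineage markers, all tested, Mitf and Mc1r rose and Tyrp1, Pmel, Dct and Gpr143 fell, with a summed level of 23348 to 25876 CPM in static and 20824 to 21459 CPM in stretched libraries. Of 16 markers of immune, endothelial, epithelial and fibroblast cells, 10 were not analysed here and 6 were in the table, with a summed level of 13.7 to 18.7 CPM in static and 16.5 to 18.5 CPM in stretched libraries; Dcn and Pecam1 were too low to be tested, and of the other 4 Pdgfra rose by 0.55 and Col1a1 fell by 0.39.

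Writers of histone methylation and the DNA methylation genes were more often higher under stretch, and histone demethylases were more often lower. Of the 70 genes, 30 rose and 13 fell, while 27 were not called. Over all tested genes 50.9% were called, 24.9% as higher and 25.9% as lower, so the total of 43 called members (61.4%) was near the background and the surplus of higher over lower calls was not shared by genes at large. The groups did not overlap for 42 members (60.0%), against 58.5% of all tested genes. The median log2 fold change was 0.11 over the members, with a range of -0.55 to 0.61, and 0.00 over all tested genes. Among 23 histone methylation writers and their core subunits 15 rose and 2 fell, with a median of 0.17. Among 16 histone demethylases 2 rose and 7 fell, with a median of -0.13. All 7 genes of DNA methylation and demethylation rose, with a median of 0.30.

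**Figure D1:**
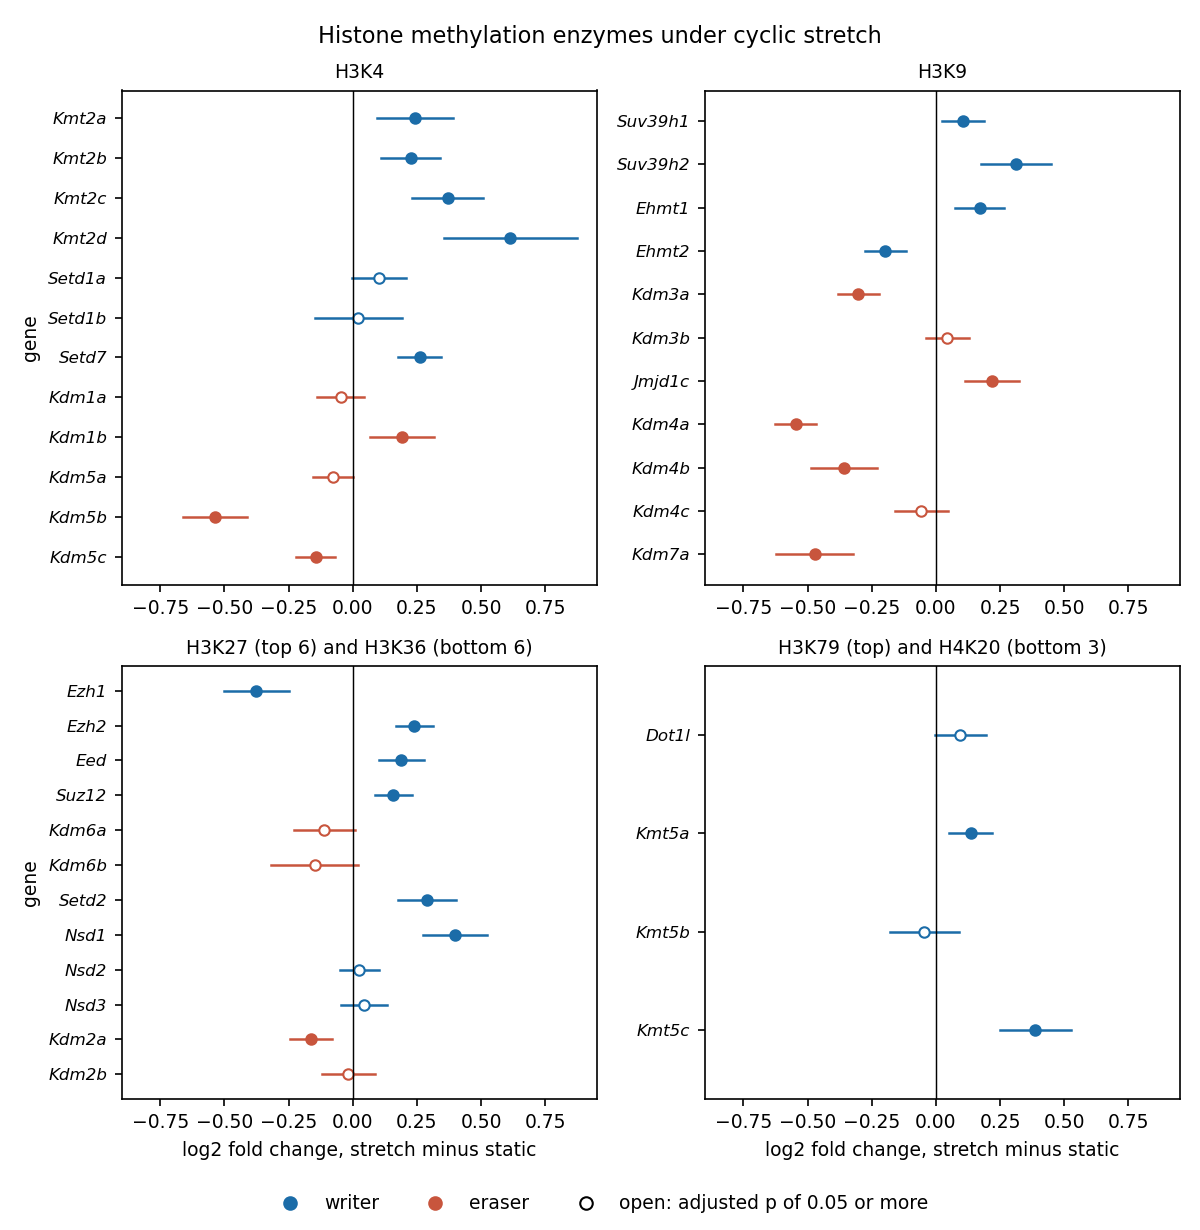
Log2 fold change of stretch over static (horizontal axis) for each histone methylation gene, with 95% intervals from edgeR; blue points are writers, red points are erasers, and open points were not called. Most blue points lie right of 0 and most red points left of it, with Kmt2d (0.61) and Kdm4a (-0.55) at the ends.

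The changes were small. Tested against a fold change of 1.2 with glmTreat, 12.9% of all genes were called (5.49% higher and 7.38% lower). Of the members, 4 passed as higher, namely Kmt2d, Nsd1, Dnmt3b and Tet1, and 3 passed as lower, namely Kdm4a, Kdm5b and Kdm7a.

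H3K4 methylation is written by the KMT2 and SET1 enzymes and by Setd7. Of 7 writers 5 rose and none fell, where 24.9% of all tested genes rose and 25.9% fell. Kmt2d (chr15:98831669-98874077), the enhancer-associated H3K4 methyltransferase, stood at 152, 113 and 193 CPM in static libraries 1, 2 and 3 and at 250, 238 and 218 CPM in stretched libraries 1, 2 and 3. All 3 stretched libraries lay above the highest static one, and the static libraries were widely spread, with library 2 lowest and library 3 highest. Its log2 fold change was 0.61 (SE 0.121, adjusted p = 0.000656). Kmt2c, its closest paralog, stood at 51.9, 48.1 and 60.7 CPM in static and 70.3, 72.1 and 66.5 CPM in stretched libraries, with no overlap. Its log2 fold change was 0.37 (SE 0.0649, adjusted p = 0.000247). Kmt2a and Kmt2b, the enzymes of the menin-containing complexes, rose by 0.24 and 0.23, whereas the menin gene Men1 fell by 0.14. Setd7, a monomethylating enzyme that also acts on other proteins, rose by 0.26. For Kmt2a the groups overlapped, and the call was lost without stretched library 2 and in DESeq2. Setd1a (0.10, 95% interval -0.00 to 0.21) and Setd1b (0.02, interval -0.15 to 0.19), the broadly acting H3K4 trimethylating enzymes, were not called, but Setd1a was called at 0.18 under an offset for GC content and transcript length.

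Static library 2 was lowest and static library 3 highest for all 4 KMT2 methyltransferases. The same order of the static libraries was seen in 33 of the 70 members (47.1%), against 23.7% of all tested genes. Among these 33, 17 were called higher and 4 lower (median 0.14). Among the 37 members without it, 13 (35.1%) were called higher and 9 (24.3%) lower (median 0.04), beside 24.9% and 25.9% of all tested genes. The order was seen in 13 of 23 histone methylation writers, 6 of them H3K4 writers, and in 5 of 16 histone demethylases. Its part in the results was not tested. The rise of Kmt2d was 0.45 without static library 2 and 0.82 without static library 3, and it was called each time. The rise of Kmt2a was 0.16 without static library 2, and that of Kmt2c was 0.30. Under the same offset the rises of Kmt2c and Kmt2a were 0.23 and 0.15, and both were still called. Without static library 3, Setd1a (0.15), Setd1b (0.15), Kmt2e (0.13), Dot1l (0.14) and Hdac10 (0.25) were also called as higher, whereas without static library 2 Setd1b was at -0.06 and Kmt2e at 0.00, and neither was called.

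Erasers of H3K4 methylation moved unequally. Kdm5b (chr1:134560178-134632878), a JARID1 trimethyl-H3K4 demethylase known in melanoma as a mark of slow-cycling cells, stood at 24.8, 25.3 and 24.8 CPM in static and 17.7, 16.3 and 17.4 CPM in stretched libraries. The groups lay well apart and each was tight. Its log2 fold change was -0.54 (SE 0.0578, adjusted p = 2.72e-06). Its paralog Kdm5a stood at 152, 157 and 154 CPM in static and 147, 149 and 142 CPM in stretched libraries. These values did not overlap either, but the difference of -0.08 (SE 0.036, adjusted p = 0.0883) was not called, although it was called at -0.23 under the GC and length offset. Within each library the log2 ratio of Kdm5b to Kdm5a was lower under stretch by 0.47, with no overlap. Kdm5c fell by 0.14 and was not called when libraries were scaled by size only, at a value of -0.08. Of the flavin enzymes, Kdm1b (LSD2) rose by 0.19, a call lost in DESeq2, under the offset and without stretched library 2, and Kdm1a (LSD1) was not called at -0.05 (interval -0.14 to 0.05). Annotated exons of Kdm1b share 505 bases (9.19% of its exon bases) with those of Dek, which rose by 0.47, and exons of Kdm5a share 251 bases (1.77%) with those of Ccdc77, which rose by 0.46. The strand of the libraries is not known, and the part of these shared bases in the values was not tested.

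H3K9 methylation is written by SUV39H enzymes at constitutive heterochromatin and by the EHMT pair in euchromatin. Suv39h2 (chr2:3455815-3474986) stood at 14.3, 14.3 and 13.8 CPM in static and 18.1, 17.2 and 17.0 CPM in stretched libraries, with no overlap. Its log2 fold change was 0.31 (SE 0.0638, adjusted p = 0.000918), and its exons share 357 bases (8.10%) with those of Dclre1c, which rose by 0.44. Suv39h1 and Ehmt1 (GLP) rose by 0.11 and 0.17. The call of Suv39h1 was lost in DESeq2 and without static library 1 or 3 or stretched library 2 or 3. Ehmt2 (G9a), the partner of Ehmt1, fell by 0.20 (adjusted p = 0.000531), which under the GC and length offset was -0.05 and not called (adjusted p = 0.285).

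Of 7 H3K9 demethylases 4 fell and 1 rose, with a median of -0.30, where 25.9% of all tested genes fell and 24.9% rose. Kdm4a (chr4:118136957-118180090), which removes trimethylation from H3K9 and H3K36, stood at 109, 108 and 106 CPM in static and 71.5, 73.6 and 75.9 CPM in stretched libraries. The lowest static library lay far above the highest stretched one. The log2 fold change was -0.55 (SE 0.0379, adjusted p = 3.00e-08), the lowest p of all members. Kdm7a, which demethylates H3K9 and H3K27, stood at 38.1, 32.4 and 39.4 CPM in static and 28.4, 25.4 and 25.2 CPM in stretched libraries. The groups did not overlap, and the log2 fold change was -0.47 (SE 0.0707, adjusted p = 6.14e-05). Kdm3a, a hypoxia-induced demethylase of mono- and dimethylated H3K9, stood at 132, 132 and 127 CPM in static and 106, 103 and 108 CPM in stretched libraries. All static libraries were higher, with a log2 change of -0.30 (SE 0.0367, adjusted p = 8.74e-06). Kdm4b, also a hypoxia-induced gene, stood at 48.0, 54.9 and 46.7 CPM in static and 39.4, 36.4 and 40.1 CPM in stretched libraries. There too the groups did not overlap, with a log2 change of -0.36 (SE 0.0599, adjusted p = 0.000162) that was -0.24 under the offset.

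The families were not uniform. Kdm4c (-0.06, interval -0.16 to 0.05) and Kdm3b (0.04, interval -0.04 to 0.13) were not called, and Jmjd1c, a JmjC protein of the KDM3 family, rose by 0.22. The rise of Jmjd1c was 0.09 and not called under the GC and length offset (adjusted p = 0.105). Of the 14 JmjC demethylases of all residues, a class grouped after values were seen, 1 rose and 7 fell, with a median of -0.15. The shares over all tested genes were 24.9% higher and 25.9% lower.

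**Figure D2:**
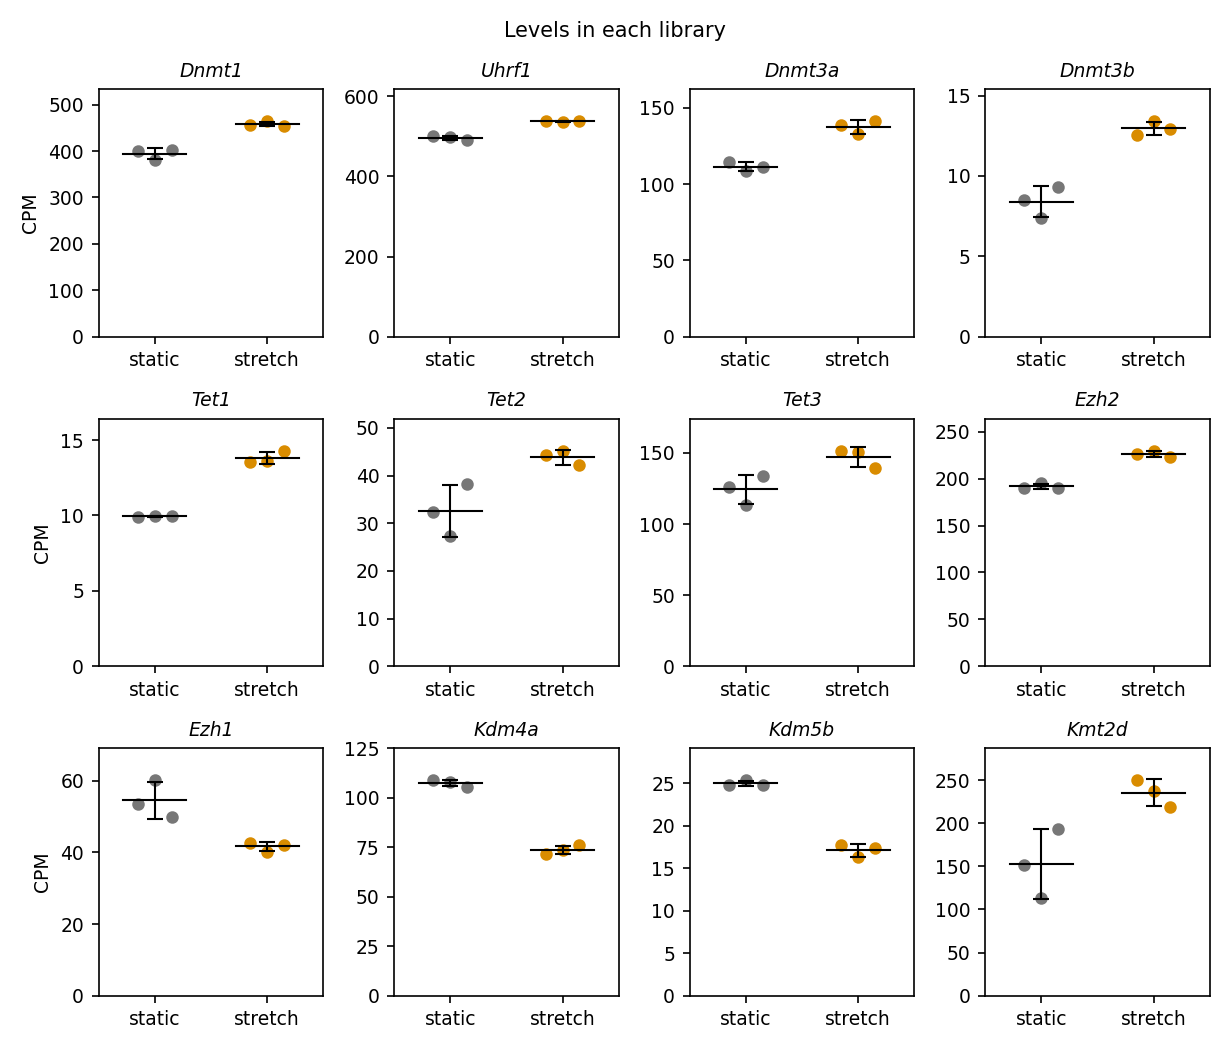
Level in CPM (vertical axis, from 0) of 12 members in each library; grey points are static and orange points stretched libraries, with lines at the mean and bars of 1 SD (n = 3 per group). Kdm4a, Kdm5b and Ezh1 are lower in all 3 stretched libraries, and the other 9 genes are higher in all 3.

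H3K27 methylation is written by Polycomb repressive complex 2 (PRC2), in which EZH2 or EZH1 is the catalytic subunit and EED and SUZ12 complete the core; EZH2 prevails in dividing cells and EZH1 is best known from resting ones. Ezh2 (chr6:47530274-47595270) stood at 190, 195 and 190 CPM in static and 226, 230 and 224 CPM in stretched libraries. Each group was tight and they did not overlap. The log2 fold change was 0.24 (SE 0.034, adjusted p = 3.71e-05). Ezh1 (chr11:101191115-101226463) moved the other way, from 53.6, 60.1 and 49.8 CPM in static to 42.7, 40.2 and 42.2 CPM in stretched libraries. The groups did not overlap and the log2 fold change was -0.38 (SE 0.0593, adjusted p = 9.84e-05). The log2 ratio of Ezh2 to Ezh1 within a library was 1.82, 1.70 and 1.93 in static and 2.40, 2.51 and 2.41 in stretched libraries, a difference of 0.62 and the largest in size among the 14 gene pairs compared. Eed rose by 0.19 and Suz12 by 0.16, the latter 0.07 and not called under the offset (adjusted p = 0.0833). The H3K27 demethylases Kdm6a (UTX; -0.11, interval -0.23 to 0.01) and Kdm6b (JMJD3; -0.15, interval -0.32 to 0.02) were not called, but Kdm6a was called at -0.21 under the offset, and without static library 2 both were called. Of 8 PRC2 accessory subunits 5 rose and none fell, where 24.9% of all tested genes rose and 25.9% fell. Mtf2, a Polycomb-like subunit that binds CpG-rich DNA, rose by 0.31. Jarid2, a JmjC protein without demethylase activity that guides the complex, rose by 0.25.

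Dnmt1 and Uhrf1, which rose, are known to be expressed with DNA replication, and Ezh1, which fell, is not. The sequences just upstream of the outermost listed start site of each gene are shown. Which start site was used in these cells was not examined, so a stretch shown may not be the promoter in use. Whether promoter sequence had a part in the changes was not tested. RefSeq promoters (GRCm38.p6) were matched for 56 of the 70 members. Each sequence below is the stretch, of the 250 bases before the start of the RefSeq gene, that lies outside annotated exons, 5′ to 3′ on the strand of the gene, and capitals mark CCAAT or its reverse complement ATTGG. The Dnmt1 stretch is chr9:20959889-20960138 on the minus strand, that of Uhrf1 is chr17:56303087-56303320 on the plus strand, and that of Ezh1 is chr11:101226464-101226713 on the minus strand.
Dnmt1: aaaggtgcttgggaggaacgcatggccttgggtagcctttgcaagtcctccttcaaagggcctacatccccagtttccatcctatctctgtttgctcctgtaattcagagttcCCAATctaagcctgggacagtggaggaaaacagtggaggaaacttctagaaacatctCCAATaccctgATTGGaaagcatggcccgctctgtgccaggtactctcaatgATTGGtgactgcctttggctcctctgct
Uhrf1: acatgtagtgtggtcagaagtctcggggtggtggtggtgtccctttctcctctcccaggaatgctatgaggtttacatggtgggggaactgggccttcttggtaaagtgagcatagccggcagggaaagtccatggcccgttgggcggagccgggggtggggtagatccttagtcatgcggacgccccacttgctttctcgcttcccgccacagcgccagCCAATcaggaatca
Ezh1: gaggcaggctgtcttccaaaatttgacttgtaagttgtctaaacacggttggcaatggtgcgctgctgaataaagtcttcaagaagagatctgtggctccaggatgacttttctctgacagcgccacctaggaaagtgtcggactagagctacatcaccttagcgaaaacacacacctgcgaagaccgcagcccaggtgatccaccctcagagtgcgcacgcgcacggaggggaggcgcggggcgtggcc
CCAAT was found 4 times upstream of Dnmt1, 1 time upstream of Uhrf1 and not in the stretch shown for Ezh1. Whole windows of 250 bases before the listed start were also searched, and for some genes these can lie within a longer transcript. CCAAT on either strand was in 22 of 56 member promoters (39.3%) against 37.1% of 9892 promoters of tested genes. By direction, CCAAT was in 9 of 26 promoters of members that rose and in 6 of 11 of those that fell. Any of the E2F octamers TTTGGCGC, TTTCCCGC, TTTGGCGG and TTTCGCGC was in 4 of 56 (7.14%) against 3.84%, and in none of the stretches shown. The hexamer TTTGAA of cell cycle genes was in 10 of 56 (17.9%) against 10.5%. The GC box GGGCGG was in 37 of 56 (66.1%) against 60.1%, and the E box CACGTG in 3 of 56 (5.36%) against 8.61%.

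H3K36 methylation is laid down by NSD enzymes as mono- and dimethylation and by SETD2, which travels with RNA polymerase II, as trimethylation. Nsd1 (chr13:55209782-55318325) stood at 31.9, 28.9 and 34.6 CPM in static and 43.1, 42.8 and 40.6 CPM in stretched libraries. The groups did not overlap, and the log2 fold change was 0.40 (SE 0.0586, adjusted p = 5.10e-05). Its paralog Nsd2 stood at 325, 334 and 316 CPM in static and 331, 338 and 323 CPM in stretched libraries, which overlapped, and its difference of 0.03 (SE 0.0358, adjusted p = 0.571) was not called. Under the GC and length offset Nsd2 was called in the other direction, at -0.11 (adjusted p = 0.0153). Setd2 rose by 0.29, or 0.18 under the offset, and Nsd3 was not called at 0.04 (interval -0.04 to 0.13). The H3K36 demethylase Kdm2a, which binds unmethylated CpG, fell by 0.16, and its paralog Kdm2b was not called at -0.02 (interval -0.12 to 0.09).

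H4K20 is monomethylated by Kmt5a in G2 and mitosis and further methylated by Kmt5b and Kmt5c. Kmt5c (chr7:4740092-4747514) stood at 26.9, 23.1 and 28.8 CPM in static and 34.6, 34.7 and 34.7 CPM in stretched libraries. The stretched libraries were nearly equal and all above the static ones. The log2 fold change was 0.39 (SE 0.0648, adjusted p = 0.000168). Kmt5a rose by 0.14, and Kmt5b was not called at -0.05 (interval -0.18 to 0.09). Dot1l, the H3K79 methyltransferase, was not called at 0.10 (interval -0.01 to 0.20), and was called at 0.17 under the offset.

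All 4 genes of DNA methylation rose. Dnmt1, the maintenance methyltransferase, stood at 401, 380 and 401 CPM in static and 456, 464 and 455 CPM in stretched libraries. The groups did not overlap, with a log2 change of 0.22 (SE 0.0349, adjusted p = 0.000118). Uhrf1, which brings DNMT1 to hemimethylated DNA, stood at 501, 498 and 491 CPM in static and at 537, 537 and 538 CPM in stretched libraries, again with no overlap. Its log2 fold change was 0.11 (SE 0.0321, adjusted p = 0.00832), and 0.20 under the offset. Of the de novo methyltransferases Dnmt3b rose further, whereas the ratio of Dnmt3a to Dnmt1 within a library overlapped between the groups. Under the offset Dnmt3a rose by 0.29 and Dnmt1 by 0.28. Dnmt3b (chr2:153649411-153687730) stood at 8.49, 7.40 and 9.33 CPM in static and 12.6, 13.4 and 12.9 CPM in stretched libraries, with no overlap and a change of 0.60 on the log2 scale (SE 0.087, adjusted p = 4.40e-05). Dnmt3a (chr12:3801559-3914443) stood at 114, 109 and 111 CPM in static and 139, 133 and 141 CPM in stretched libraries. All 3 stretched libraries were higher, with a log2 change of 0.30 (SE 0.0384, adjusted p = 1.35e-05).

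All 3 TET genes, which act in the opposite direction, rose as well. Tet1 (chr10:62804570-62887469) stood at 9.92, 9.95 and 10.0 CPM in static and 13.6, 13.6 and 14.3 CPM in stretched libraries. The groups were tight and did not overlap, with a log2 change of 0.47 (SE 0.071, adjusted p = 6.88e-05) that was 0.29 under the offset. Tet2 (chr3:133463677-133545136) stood at 32.3, 27.3 and 38.2 CPM in static and 44.3, 45.2 and 42.1 CPM in stretched libraries. The static libraries were spread more widely but stayed below the stretched ones, with a log2 change of 0.41 (SE 0.0827, adjusted p = 0.000781). Tet3, the most abundant per length of the family, rose by 0.24.

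Genes of proliferation moved with Dnmt1, Uhrf1 and Ezh2. Of 18 such markers 14 rose and none fell, where 24.9% of all tested genes rose and 25.9% fell. The summed level of these markers was 4555 to 4582 CPM in static and 5893 to 5979 CPM in stretched libraries. Mki67 rose most, by 1.38. It stood at 299, 242 and 428 CPM in static libraries 1, 2 and 3 and at 834, 847 and 859 CPM in stretched ones. Ccne1, Ccne2, Mcm5 and Cdt1 were not called. Top2a, the topoisomerase of dividing cells, rose by 0.51 and Ccnb1, the mitotic cyclin B1, by 0.51. Their part in the changes of the chromatin enzymes was not tested, and in these bulk samples a change in the share of dividing cells and a change of RNA per cell cannot be told apart.

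Writers and erasers were then set against each other within each library, as the log2 ratio of summed writer to summed eraser CPM. For H3K4 the ratio was 0.88, 0.67 and 1.05 in static and 1.33, 1.28 and 1.24 in stretched libraries. The difference was 0.42 with no overlap. It was 0.32 without static library 2, 0.51 without static library 3 and 0.33 in CPM per kb, also with no overlap. For H3K36 the difference was 0.22, from 1.57 ± 0.05 to 1.79 ± 0.02 (SD, n = 3 per group), and with the KDM4 enzymes also counted as H3K36 erasers it was 0.36. Neither pair of groups overlapped. For H3K9 the difference was 0.11, from -0.11 ± 0.05 to -0.01 ± 0.01 (SD, n = 3 per group), the smallest of the 4 histone residues, though its groups did not overlap.

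For H3K27 the ratio was 2.15, 2.40 and 2.02 in static and 2.45, 2.48 and 2.40 in stretched libraries, with a difference of 0.26 and static library 2 just below the lowest stretched one. Without static library 3 the difference was 0.17, and with Ezh1 and Ezh2 as the only writers it was 0.24 and the groups overlapped. For DNA the ratio of writers to TET genes overlapped between the groups: it was 2.61, 2.72 and 2.48 in static and 2.45, 2.45 and 2.55 in stretched libraries, a difference of -0.12. That difference was -0.06 without static library 2, where the groups overlapped, and -0.18 without static library 3 and -0.15 without stretched library 3, where they did not. A summed ratio follows its most abundant members, and each sum holds genes that moved in opposite directions or by unequal amounts, such as Ezh2 and Ezh1 for H3K27. Among the H3K9 writers the highest level was that of Ehmt2, whose fall was not called under the GC and length offset.

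**Figure D3:**
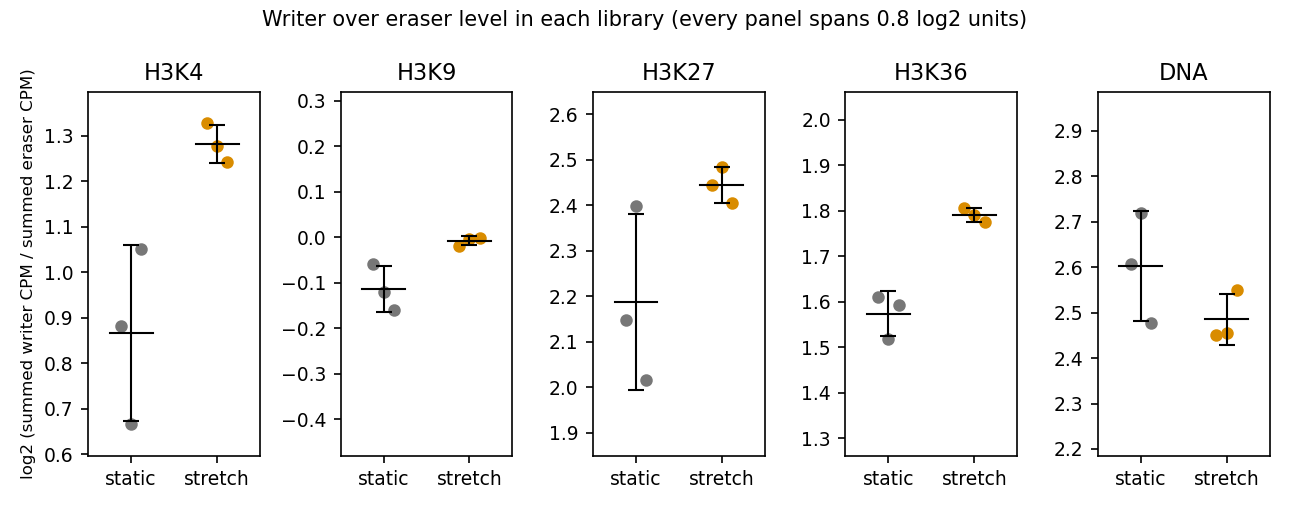
Log2 ratio of summed writer CPM to summed eraser CPM (vertical axis, 0.8 units in every panel) for H3K4, H3K9, H3K27, H3K36 and DNA; points are libraries, lines are means and bars are 1 SD (n = 3 per group). Stretched libraries lie above static ones in the 4 histone panels, by 0.42 for H3K4, and overlap with them in the DNA panel.

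The log2 ratio within each library was compared for 14 gene pairs, members of 1 family except for Uhrf1 and its partner Dnmt1. The groups did not overlap for 9 of these pairs, beside 58.5% of all tested genes taken singly. Each of these 9 reached p = 0.1 in an exact two-sided permutation test, the smallest that 3 against 3 libraries can give, and 0.156 after adjustment over the 14 pairs. Beside Ezh2 over Ezh1 and Kdm5b over Kdm5a, they were Hdac5 over Hdac4 (-0.47), Kmt2d over Kmt2a (0.40), Nsd2 over Nsd1 (-0.38), Tet3 over Tet2 (-0.20), Suv39h2 over Suv39h1 (0.20), Kmt5b over Kmt5a (-0.19) and Uhrf1 over Dnmt1 (-0.10). The groups overlapped for Kdm4b over Kdm4a (0.18), Dnmt3a over Dnmt1 (0.08), Sirt6 over Sirt1 (0.04), Kdm6b over Kdm6a (-0.02) and Hdac2 over Hdac1 (-0.00).

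Zinc-dependent deacetylases changed in both directions, as genes at large did. Of 11 HDAC genes 4 rose (36.4%) and 3 fell (27.3%), with a median of 0.14. Over all tested genes 24.9% rose and 25.9% fell. In class I, the nuclear enzymes of corepressor complexes, Hdac1, Hdac2 and Hdac3 rose by 0.14, 0.14 and 0.23. The rise of Hdac2 was lost under the offset and without stretched library 2. Hdac8 (chrX:102284638-102505381), the class I enzyme known to deacetylate the cohesin subunit SMC3, stood at 14.3, 12.7 and 14.9 CPM in static and 9.92, 11.3 and 11.1 CPM in stretched libraries. The groups did not overlap, and the log2 fold change was -0.40 (SE 0.083, adjusted p = 0.000980).

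In class IIa, whose members bind MEF2 factors and shuttle between nucleus and cytoplasm, Hdac4 rose by 0.22 whereas Hdac5 fell by 0.26, the latter -0.14 under the offset and still called. Hdac7 fell by 0.17, a call lost in DESeq2, under size-only scaling, under the offset and without static library 1 or stretched library 1 or 2; its exons share 29 bases (0.43%) with those of Slc48a1, a heme transporter gene that fell by 0.64. Hdac9 was low, at 1.21 CPM in static and 1.51 CPM in stretched libraries and was not called. The class IIb genes Hdac6 (0.14, interval 0.01 to 0.26), the tubulin deacetylase, and Hdac10 (0.18, interval -0.01 to 0.37), a polyamine deacetylase, were not called, nor was Hdac11 of class IV (0.16, interval -0.03 to 0.35). Under the offset these 3 were called, at 0.20, 0.28 and 0.26.

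Of 7 sirtuins, the NAD-dependent deacylases, only Sirt2 was called. Sirt2, a mainly cytoplasmic deacetylase, fell by 0.21 (adjusted p = 0.000591), or by 0.13 under the offset. The nuclear Sirt1, Sirt6 and Sirt7 had values of -0.10, -0.08 and -0.08, and the mitochondrial Sirt3, Sirt4 and Sirt5 had values of 0.13, 0.19 and 0.09. Each of these 6 intervals held 0. The 3 mitochondrial genes were measured at 4.70 to 6.75 CPM in static libraries.

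**Figure D4:**
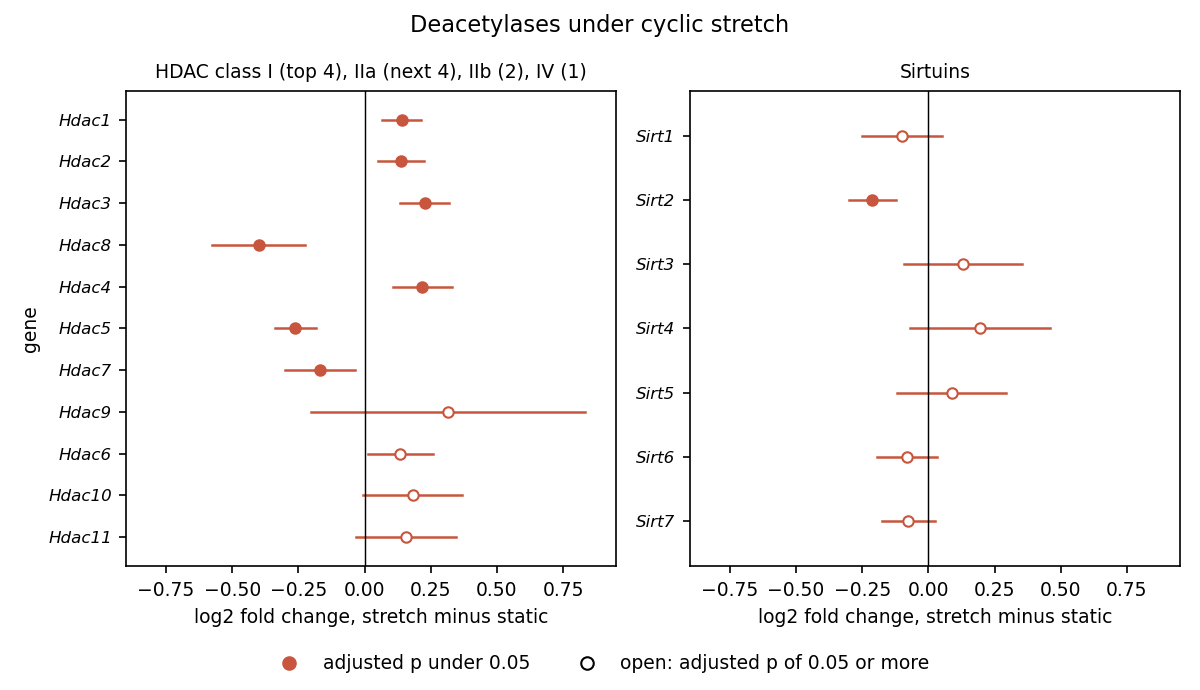
Log2 fold change of stretch over static (horizontal axis) of the 11 HDAC genes and the 7 sirtuins, with 95% intervals; filled points were called and open points were not. Hdac8 (-0.40), Hdac5 and Hdac7 lie below 0 and Hdac1 to Hdac4 above it, and Sirt2 is the only filled sirtuin.

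The 6 remaining SET-domain and JmjC genes of the rule have other or unsettled substrates. Setd6, a methyltransferase of the NF-kappa-B subunit RelA, rose by 0.29 and Setd5 by 0.13, the latter not called without stretched library 1. Setd3, the actin histidine methyltransferase, Kmt2e, Kdm8 and Setd4 were not called, with values of 0.04, 0.07, 0.01 and -0.16. Under size-only scaling Setd3 was called at 0.10. Exons of Kmt2e share 972 bases (9.31%) with those of Srpk2, which rose by 0.19, and the part of these bases was not tested.

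Per length of the longest transcript, the members spanned a wide range of levels. Uhrf1 was highest at 138 ± 1.5 CPM per kb in static and 150 ± 0.12 CPM per kb in stretched libraries (SD, n = 3 per group). Ehmt2 (84.0 and 73.2), Kmt5a (72.7 and 80.0), Ezh2 (68.8 and 81.2) and Dnmt1 (67.2 and 78.1 CPM per kb in static and stretched libraries) followed. In static libraries the levels of Ezh2 and Dnmt1 differed by less than the SD of 2.0 for Dnmt1. Under stretch Ezh2, Kmt5a and Dnmt1 exceeded Ehmt2, whose log2 change was -0.05 and not called under the GC and length offset. Among DNA methylation genes, Dnmt1 was followed by Dnmt3a (11.5 and 14.2) and Dnmt3b (1.95 and 3.00). Among TET genes Tet3 (11.4 and 13.5) was above Tet2 (3.55 and 4.78) and Tet1 (0.693 and 0.962 CPM per kb). The lowest members were Hdac9 (0.153 CPM per kb in static libraries) and Setd4 (0.541).

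An offset for GC content and transcript length changed some calls. Across the 70 members, which are not independent replicates, Spearman's rho of the fold change with transcript length was 0.203, against 0.076 over the 12135 tested genes of known length. With GC content it was -0.102, against -0.286. With the offset 16 writers rose and 2 fell, no eraser rose and 9 fell, and all 7 DNA methylation genes rose. Over all members 6 calls were lost and 7 gained, and Nsd2 was newly called with its sign reversed.

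**Figure D5:**
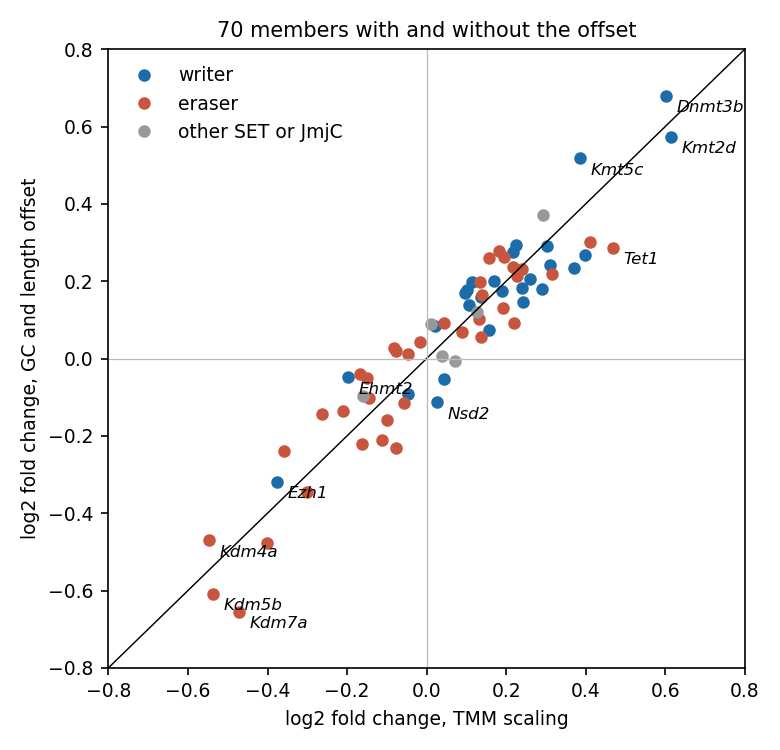
Log2 fold change of the 70 members with TMM scaling alone (horizontal axis) and with an added offset for GC content and transcript length (vertical axis); each point is a gene, blue for writers, red for erasers and grey for other genes, and the line marks equal values. The points follow the line (Spearman's rho 0.926 across genes), with Ehmt2 moved to near 0 and Nsd2 to below it.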

How the data were processed

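RNA of B16F10luc2 cells from 3 static and 3 stretched samples was sequenced, and the authors deposited 1 table of estimated counts per gene, as unscaled whole numbers. Salmon 1.4.0 is named in the submitters' processing notes; its index, the library strand and how transcripts were summed to genes are not given in any source used here. Reads that fit similar transcripts are divided by a model in Salmon, which adds uncertainty to close paralogs. No gene had fewer than 10 counts summed over the 6 libraries.

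Entrez numbers were matched to RefSeq symbols of GRCm38.p6 (14875 of 14883; the other 8 kept their number). The main test used R 4.3.3 and edgeR 4.0.16, with filterByExpr (minimum count 10), TMM scaling and a quasi-likelihood model of group only, with 4 residual degrees of freedom, on counts rounded to whole numbers. Tests were two-sided. The procedure was tested on simulated data. Transcript length and GC content came from the longest GENCODE M21 transcript, known for 98.0% of tested genes. Alternatives were RLE and size-only scaling, 2 other count filters (none, and 5 CPM in 3 libraries), DESeq2 1.42.0, the replicate number as a block, glmTreat with a threshold of 1.2-fold, an offset per library by natural splines (5 degrees of freedom) on GC content and log2 length, each library left out, other eraser and writer classes, and, added after the data were seen, CPM per kb for the summed ratios.

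The members, classes and lists were chosen with earlier results of these data known. Values in every library are given for members called with an absolute log2 fold change of at least 0.3, at most 4 of lowest p in each class, and, within the 14 listed gene pairs, for a partner that was uncalled or opposite; Dnmt1 and Uhrf1 were added after their values were seen. From other lists the 2 called genes of lowest p are named. Mki67, Men1 and the uncalled proliferation markers were added after their values were seen. Overlapping genes named beside members, and Kmt2a and other members outside this rule, are given to account for every member or its limits.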

Additional observations from a re-analysis of the deposited data

How the results depend on the processing

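With RLE scaling, no count filter or the replicate block no call of the 70 members changed, nor did any of the 68 that passed the filter of 5 CPM, which left out Hdac9 and Setd4. The labels do not say whether same-numbered samples were handled as pairs. Deviations of same-numbered libraries from their group means correlated at -0.012, 0.005 and -0.077, which shows little shared variation but cannot settle the pairing. The replicate block gave 5967 calls over all genes against 6298, with 30 members higher and 13 lower as before. Size-only scaling moved the median of all genes to 0.06 and that of the members to 0.17, with 38 members higher and 11 lower and a split over all genes of 4117 higher and 2401 lower, against 3087 and 3211. There Kdm2a was at -0.10, Suv39h1 at 0.17 and Uhrf1 at 0.17, each still called, and Dot1l, Hdac6, Hdac10, Hdac11, Kdm3b, Nsd2, Setd1a and Setd3 were newly called. Against a fold change of 1.2, 1592 genes were called (679 higher, 913 lower), of the members 4 higher and 3 lower: writers 2 higher and 0 lower, erasers 0 higher and 3 lower, DNA genes 2 higher. Erasers called higher were 1 in DESeq2 and 0 with the GC and length offset, and 1 to 2 as each library was left out, in place of 2; the value of 1 came without stretched library 2. Nsd2 turned to -0.11 under the offset. The difference between stretch and static in the writer over eraser log2 ratio was 0.33 for H3K4 and 0.14 for H3K9 per kb. It was 0.36 for H3K36 with KDM4 enzymes as erasers. The latter ratio has 3 more erasers in its sum by construction, and the cause of the other changes was not tested. As each library was left out, 27 to 34 members were higher and 12 to 15 lower. Depth limits chiefly the low genes Hdac9, Setd4 and the mitochondrial sirtuins.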

Other observations

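Of 11 subunits of the KMT2 and SET1 complexes 4 rose and 2 fell, with a median of 0.04; Paxip1 and Pagr1a, both subunits of the KMT2C and KMT2D complexes, moved apart at 0.27 and -0.31. Of 31 subunits of HDAC complexes 4 rose and 5 fell, with a median of 0.00; the NuRD subunit Mbd3 fell by 0.24 and the SIN3 subunit Arid4b rose by 0.53. Of 12 other lysine methyltransferases 3 rose and 1 fell, among them Setdb1, which trimethylates H3K9, at 0.24 and Smyd2 at 0.17. Of 7 other demethylases tested none rose and 2 fell: Hr, a JmjC corepressor, at -0.62 and Phf2 at -0.17. For comparison, over all tested genes 24.9% rose and 25.9% fell.

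Of 11 histone acetyltransferases 3 rose and 2 fell; Hat1, which acetylates newly made histone H4, rose by 0.42 and Kat2b (PCAF) fell by 0.20. Of 8 arginine methyltransferases 2 rose and 1 fell, with Prmt1, the main asymmetric dimethylating enzyme, at 0.35 and Prmt2 at -0.24. Of 13 readers of methylated DNA or H3K9 and base excision genes 6 rose and 1 fell, among them the heterochromatin proteins Cbx3 (0.26) and Cbx5 (0.21). Of 18 genes that supply or consume cosubstrates 3 rose and 5 fell: Acly, which makes acetyl-CoA from citrate, fell from 846 ± 27 to 546 ± 6.5 CPM (SD, n = 3 per group; log2 fold change -0.63), and Idh2, which makes 2-oxoglutarate in mitochondria, rose from 234 ± 5.2 to 309 ± 7.7 CPM (0.40).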
